A study of Mus musculus with 10 samples.

Results

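Nedd4, Nedd4l, Ltn1 and Xiap are 4 ubiquitin ligase genes, described here in calf muscle of mice deficient in the transcription factor Skn-1 and of wild-type mice. They are 4 of the 18193 genes that the array measured with a probe set of a single gene, and 22 probe sets read them. Nedd4, Ltn1 and Xiap were chosen on the measured difference between the genotypes in this table, and Nedd4l, a close relative of Nedd4, was listed with them. The genotype differences of these genes are therefore given as a description, with no test. The samples were 5 arrays of gastrocnemius from Skn-1/Pou2f3-deficient mice and 5 from wild-type mice, each array labelled as a biological replicate. All mice were male, were 12 to 16 weeks old, ate chow and were fasted for 18 h before dissection, so no fed muscle is compared. The deficient line began on a mixed 129 x C57BL/6J background and later had over 10 generations of backcrosses to C57BL/6J. Neither the deleted stretch of the gene nor the origin of the wild types (littermates or not) is stated in the labels. Skn-1, the older name of Pou2f3, is a transcription factor with a POU domain, and the labels name no deletion limited to muscle.

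A ubiquitin ligase, or E3, brings a ubiquitin-loaded E2 enzyme to a protein and has the ubiquitin passed to it, which can mark that protein for the proteasome, for endocytosis or for a change in signalling. Nedd4 and Nedd4l are HECT ligases, which carry the ubiquitin on their own catalytic cysteine and find substrates through WW domains. Nedd4 acts on growth factor receptors and on Notch in muscle, and Nedd4l is best known for removing sodium channels from the cell surface. Ltn1, or listerin, is a RING ligase that sits on the stalled large ribosomal subunit and ubiquitinates the unfinished chain. Xiap, the X-linked inhibitor of apoptosis, binds and blocks caspases and carries a RING domain that ubiquitinates them and its signalling partners.

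The promoters of the 3 genes with a separated probe set are shown because Pou2f3, like other POU proteins, is known to bind the octamer ATGCAAAT. The sequences come from RefSeq (GRCm38.p6), run 5′ to 3′ on the strand of the gene from 250 bases before the annotated start to 50 bases after it, and have the octamer in capitals where it occurs. Nedd4 has 2 annotated starts in that table, at chr9:72662081-72662380 and chr9:72693048-72693347 on the plus strand. Ltn1 lies at chr16:87432557-87432856 on the minus strand, and the first window of Xiap lies at chrX:42068148-42068447 on the plus strand.
Nedd4 first start: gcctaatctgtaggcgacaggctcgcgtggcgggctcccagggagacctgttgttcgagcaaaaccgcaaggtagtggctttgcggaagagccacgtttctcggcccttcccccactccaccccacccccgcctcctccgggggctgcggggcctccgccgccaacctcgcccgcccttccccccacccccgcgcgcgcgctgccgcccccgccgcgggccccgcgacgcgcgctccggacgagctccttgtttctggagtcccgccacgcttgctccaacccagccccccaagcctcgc
Nedd4 second start: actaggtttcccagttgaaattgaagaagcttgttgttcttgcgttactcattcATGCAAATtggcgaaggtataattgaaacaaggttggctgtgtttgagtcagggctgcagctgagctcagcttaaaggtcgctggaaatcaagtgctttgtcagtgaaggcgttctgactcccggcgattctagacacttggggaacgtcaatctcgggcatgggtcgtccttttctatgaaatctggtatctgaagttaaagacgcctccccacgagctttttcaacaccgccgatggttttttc
Ltn1: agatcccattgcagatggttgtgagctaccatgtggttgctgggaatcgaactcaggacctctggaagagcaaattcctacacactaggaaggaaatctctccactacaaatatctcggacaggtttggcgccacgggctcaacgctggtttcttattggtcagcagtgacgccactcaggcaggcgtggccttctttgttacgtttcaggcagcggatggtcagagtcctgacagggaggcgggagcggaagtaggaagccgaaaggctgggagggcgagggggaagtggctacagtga
Xiap: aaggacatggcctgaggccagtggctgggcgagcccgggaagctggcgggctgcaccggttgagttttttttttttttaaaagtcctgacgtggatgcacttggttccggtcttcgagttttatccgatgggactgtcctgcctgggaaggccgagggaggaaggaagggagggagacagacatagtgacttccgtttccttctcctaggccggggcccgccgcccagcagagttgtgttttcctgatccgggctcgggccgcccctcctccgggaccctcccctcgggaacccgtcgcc

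The window at the second Nedd4 start holds the octamer at its bases 55 to 62, which is 196 to 189 bases before the start. ATGCAAAT or its reverse complement ATTTGCAT stands in 570 of the 32851 windows of 300 bases in the same table, which is 1.74%. The first Nedd4 window, the Ltn1 window and the 3 Xiap windows do not hold these letters on either strand. A match is a string of letters and is no measured binding site, and the lack of one says nothing about the factor. The 2 Nedd4 windows differ in composition, with 73.0% G and C and 35 CpG in the first against 46.7% and 13 CpG in the second. The Ltn1 window has 55.0% G and C with 13 CpG, and the Xiap window has 61.7% with 20 CpG, against medians of 52.7% and 7 CpG over all windows. The array values do not tell which start a transcript used.

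Values are those the authors deposited, taken as log2 from their range of 4.93 to 13.96, and differences are knockout minus wild type. A fold is computed from that reading. Most of the table hardly varied: 86.2% of its 45037 probe sets had an SD over the 10 arrays at or below 0.01 and are called low-variation, since no size can be read from their differences. So flat a reading is unusual for array data and is not taken as a measure of unchanged RNA. The other 6209 are called ordinary. Of the 22 probe sets of the 4 genes, 8 were ordinary and 14 were low-variation. The brightest probe set of a gene is the one with the highest mean over the 10 arrays, and the rest are called dimmer.

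Nedd4 had 3 probe sets, all of them ordinary, and they gave unlike pictures of the same gene. The dimmer probe set 1421955_a_at is the reading on which Nedd4 was chosen. It stood at 10.56, 10.33, 10.28, 10.53 and 10.43 in knockouts and at 9.56, 9.48, 9.50, 9.64 and 9.44 in wild types. All 5 knockouts lay above all 5 wild types, with 0.64 between the lowest knockout and the highest wild type. The means were 10.43 ± 0.122 (SD, n = 5) and 9.52 ± 0.0801 (SD, n = 5), a difference of 0.90 ± 0.07 (SE), which is 1.87 times the wild-type level. Its mean level was above that of 97.2% of the probe sets on the array.

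The brightest Nedd4 probe set, 1450431_a_at, stood at 10.39, 10.24, 10.38, 10.48 and 10.47 in knockouts and at 10.05, 10.40, 10.25, 10.30 and 10.14 in wild types. Here the genotypes overlapped, and wild type 2 was above 3 of the 5 knockouts. The means were 10.39 ± 0.0976 (SD, n = 5) and 10.23 ± 0.139 (SD, n = 5), a difference of 0.16 ± 0.08 (SE), or 1.12 times. The platform annotation gives this probe set and 1421955_a_at the same target sequence. Whether both read the same transcripts of the gene was not tested. Their differences between genotypes were 0.16 and 0.90. Levels of different probe sets are not set against each other as amounts of RNA, because each probe set has its own response.

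The dimmest Nedd4 probe set, 1451109_a_at, stood at 8.24, 8.17, 8.60, 8.48 and 8.61 in knockouts and at 7.98, 8.34, 8.44, 8.30 and 8.26 in wild types. The genotypes overlapped again, with 3 knockouts above every wild type and knockouts 1 and 2 below most of them. The means were 8.42 ± 0.202 (SD, n = 5) and 8.27 ± 0.173 (SD, n = 5), a difference of 0.16 ± 0.12 (SE), or 1.11 times. The largest and smallest difference among the Nedd4 probe sets were thus 0.75 apart. That gap follows from the reading on which Nedd4 was chosen.

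**Figure D1:**
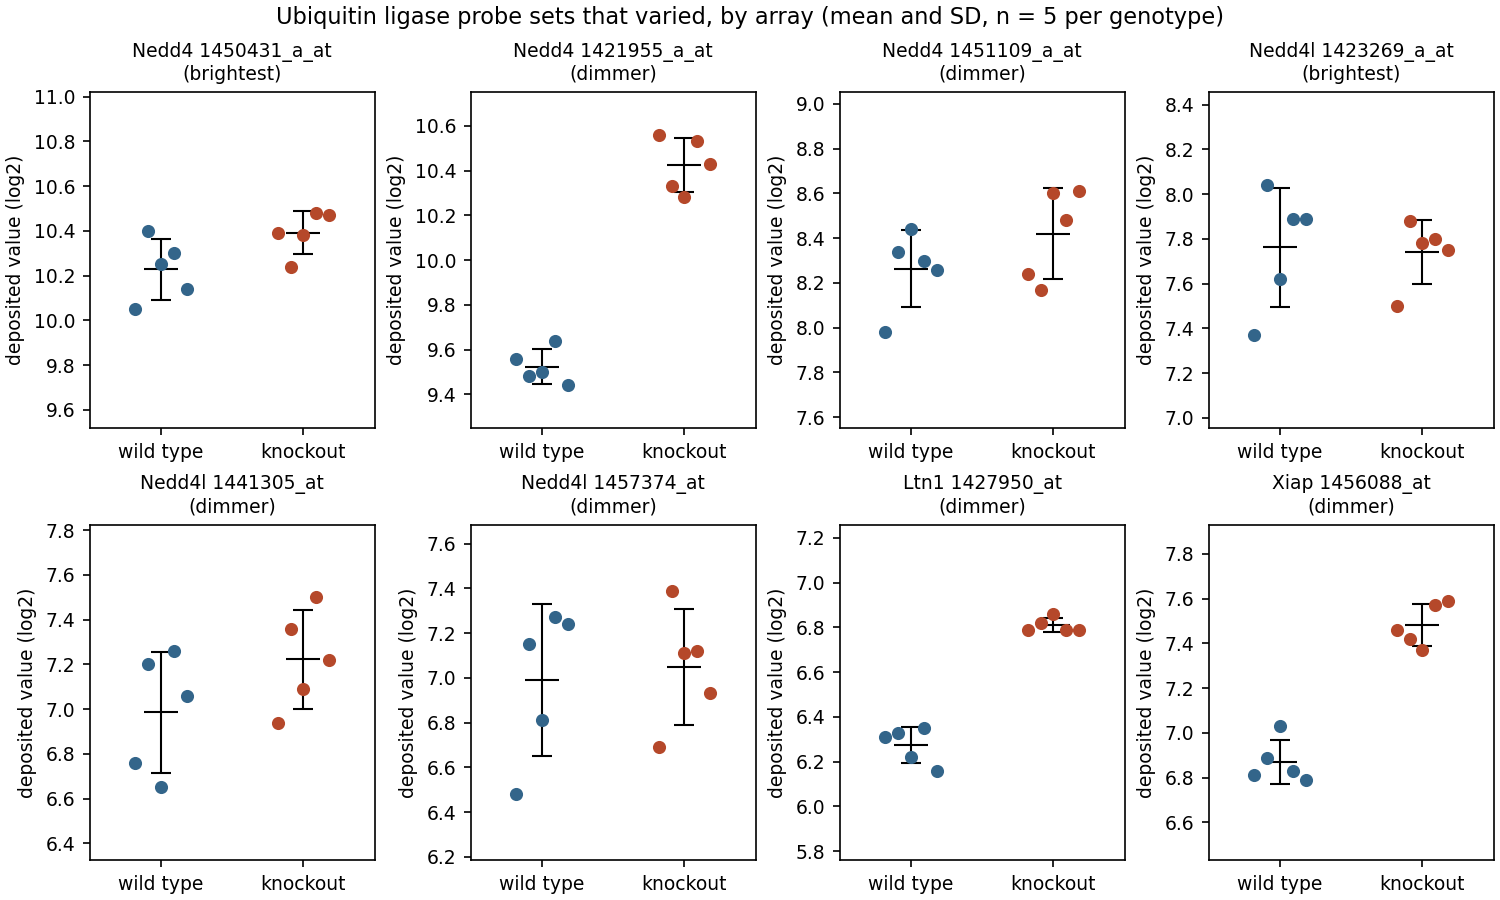
Deposited values (log2) of the 8 ordinary probe sets of Nedd4, Nedd4l, Ltn1 and Xiap, 1 panel a probe set, with a point for each array and bars for mean ± SD in 5 wild-type and 5 knockout arrays; every panel spans the same height on the log2 axis. The genotypes stand apart in Nedd4 1421955_a_at, Ltn1 1427950_at and Xiap 1456088_at, on which the genes were chosen, and overlap in the other 5 panels.

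Nedd4l had 6 probe sets, and none of its 3 ordinary ones separated the genotypes. The brightest, 1423269_a_at, stood at 7.50, 7.88, 7.78, 7.80 and 7.75 in knockouts and at 7.37, 8.04, 7.62, 7.89 and 7.89 in wild types. Knockout 1 and wild type 1 were the lowest of their groups, and 3 wild types were above every knockout. The means were 7.74 ± 0.141 (SD, n = 5) and 7.76 ± 0.267 (SD, n = 5), a difference of -0.02 ± 0.14 (SE).

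The second Nedd4l probe set, 1441305_at, stood at 6.94, 7.36, 7.09, 7.50 and 7.22 in knockouts and at 6.76, 7.20, 6.65, 7.26 and 7.06 in wild types, a difference of 0.23 ± 0.16 (SE). The third, 1457374_at, stood at 6.69, 7.39, 7.11, 7.12 and 6.93 in knockouts and at 6.48, 7.15, 6.81, 7.27 and 7.24 in wild types, a difference of 0.06 ± 0.19 (SE). Both overlapped, and array 1 was the lowest or next to the lowest of its genotype in each. The 3 low-variation probe sets of Nedd4l had means of 6.45, 6.09 and 6.05, near the array medians of 6.23 to 6.24. The largest and smallest difference among the ordinary Nedd4l probe sets were 0.25 apart.

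Ltn1 had 6 probe sets, of which a single dimmer one was ordinary. This probe set, 1427950_at, stood at 6.79, 6.82, 6.86, 6.79 and 6.79 in knockouts and at 6.31, 6.33, 6.22, 6.35 and 6.16 in wild types. All knockouts lay above all wild types, 0.44 apart at the nearest, and the knockouts were closely spaced. The means were 6.81 ± 0.0315 (SD, n = 5) and 6.27 ± 0.0787 (SD, n = 5), a difference of 0.54 ± 0.04 (SE), or 1.45 times. The wild-type mean lay next to the array medians and may not exceed background, so the size of a change in RNA is uncertain. The brightest Ltn1 probe set, 1427949_at, was low-variation at 8.19 in both genotypes, and the others stood at 6.97, 6.61, 6.05 and 5.64 with an SD of at most 0.00041.

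Xiap had 7 probe sets, and again a single dimmer one was ordinary. This probe set, 1456088_at, stood at 7.46, 7.42, 7.37, 7.57 and 7.59 in knockouts and at 6.81, 6.89, 7.03, 6.83 and 6.79 in wild types. All knockouts lay above all wild types, with 0.34 between the nearest, and knockout 5 and wild type 3 were the highest of their groups. The means were 7.48 ± 0.0962 (SD, n = 5) and 6.87 ± 0.0967 (SD, n = 5), a difference of 0.61 ± 0.06 (SE), or 1.53 times. The brightest Xiap probe set, 1437533_at, was low-variation at 8.86. The other 5 stood at 6.56, 5.65, 5.63, 5.62 and 5.61, with an SD of at most 0.000297, and the last 4 of these were below the array medians.

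**Figure D2:**
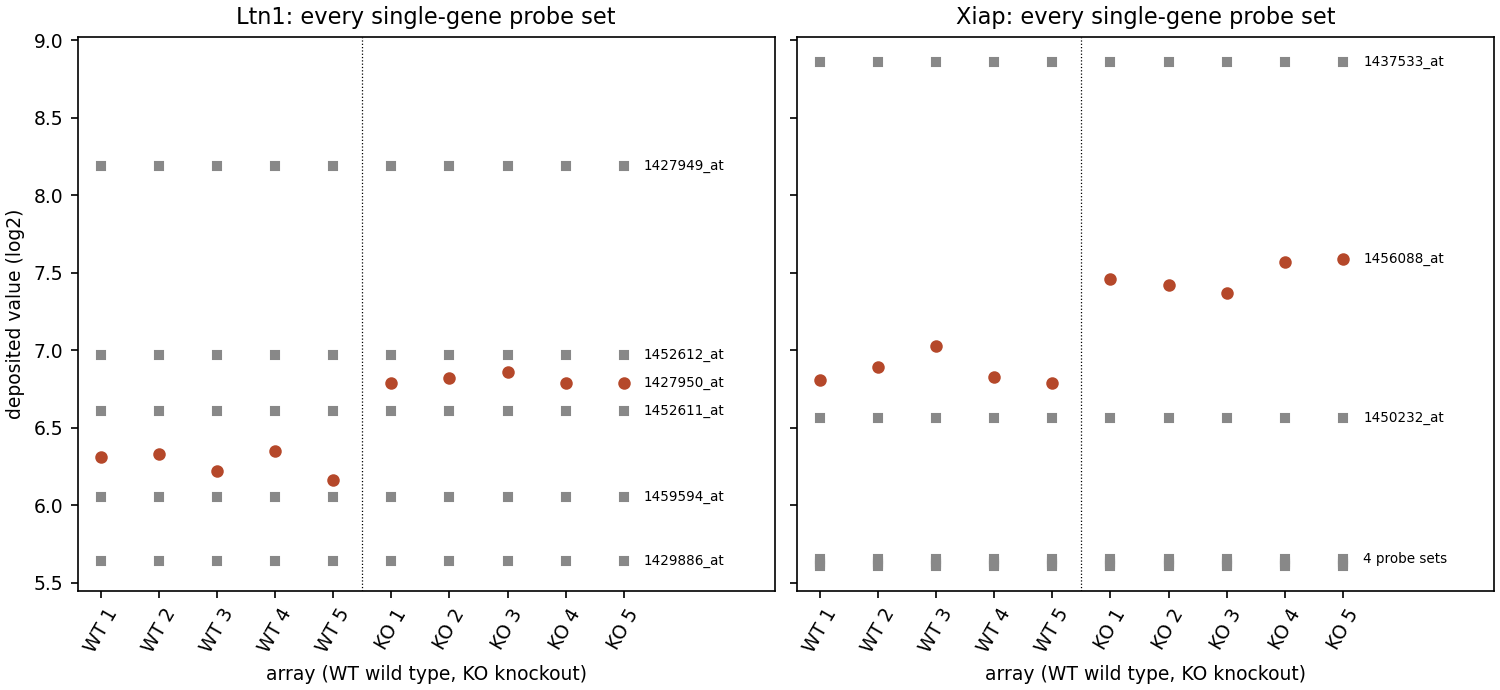
Deposited values (log2) of all 6 Ltn1 and all 7 Xiap probe sets in each of the 10 arrays, with red circles for the ordinary probe set of each gene and grey squares for low-variation ones. The 5 grey Ltn1 and 6 grey Xiap probe sets, including the brightest at 8.19 and 8.86, are flat in the deposited values, which is not taken as unchanged RNA. The red ones, on which the genes were chosen, step up from wild type to knockout.

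Of the 8 ordinary probe sets, 7 had a higher mean in knockouts, and 3 had no overlap, 1 each of Nedd4, Ltn1 and Xiap. Among all 6209 ordinary probe sets, 49.2% had a higher mean in knockouts, the median difference was -0.002 and the range from the 5th to the 95th percentile was -0.19 to 0.31. All knockouts lay above all wild types in 209 of those 6209, which is 3.37%. With limma over the 45037 probe sets, 70 were called higher in knockouts at an adjusted p of 0.05 (0.155%), 16 lower (0.0355%) and 86 in all (0.191%). Of the ordinary ones 52 were called higher (0.837%), and the 3 separated probe sets of these genes were among them by the choice of the genes. Nothing is read from that count.

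RNA of other tissues was present in some of the arrays. Muscle fibre genes were high in all, with a mean over the 12 listed, including Acta1 and Ckm, of 12.96 to 13.08. Epidermis markers (19 of 20 measured, 16 ordinary) were raised in knockouts 1 and 4. There the ordinary ones lay on average 1.42 and 1.82 above their own medians over the arrays. The mean over all measured ones ran from 6.12 to 7.73 in knockouts and from 6.08 to 6.82 in wild types. Hair markers (19 of 20, 16 ordinary) were raised in the same measure by 2.28 and 1.64 in wild types 1 and 3. Their list means ran from 5.83 to 7.77 in wild types against 5.83 to 5.87 in knockouts. Lymphocyte markers (17 of 20, 15 ordinary) were raised by 1.64 in knockout 5 and 1.65 in wild type 3. Their list means were 6.04 to 7.53 in knockouts and 6.01 to 7.54 in wild types. No marker list was at 0, since array values have a background level. In bulk muscle, fewer cells of a type and less RNA per cell cannot be told apart. The single Pou2f3 probe set was low-variation at 6.47 in both genotypes. It does not check the labels or show whether wild-type muscle expresses Pou2f3.

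Without the 5 arrays that carried another tissue's genes, 2 knockouts and 3 wild types remained. The separated probe sets of Nedd4, Ltn1 and Xiap then differed by 0.79, 0.56 and 0.56, and the brightest Nedd4 probe set by 0.03. Without the 2 arrays with lymphocyte genes, an alternative added after seeing the data, the same 4 differed by 0.90, 0.53, 0.62 and 0.15. Xiap, whose highest knockout and wild type are these 2 arrays, thus differed by 0.61 with them and 0.62 without them. For Nedd4l 1441305_at the difference was 0.23 with all arrays, 0.05 without the 5 and 0.15 without the 2.

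**Figure D3:**
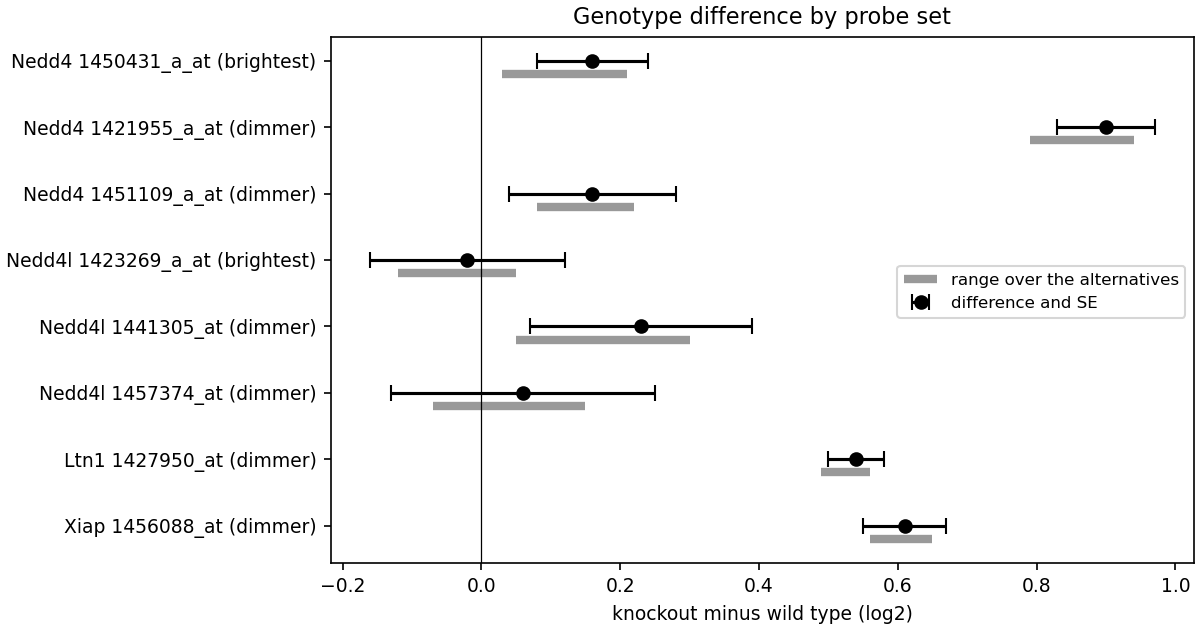
Knockout minus wild-type difference (log2) of the 8 ordinary probe sets, with the SE from the limma fit and the range over the alternative settings. The ranges are 0.79 to 0.94 for Nedd4 1421955_a_at, 0.49 to 0.56 for Ltn1 1427950_at and 0.56 to 0.65 for Xiap 1456088_at, and those of the other 5 lie nearer to 0 or span it.

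Nedd4 lies on chromosome 9, 698 genes after Pou2f3 in the RefSeq order. Ltn1 lies on chromosome 16, Nedd4l on 18 and Xiap on X. Since a segment of 129 chromosome can remain around a targeted gene, the 50 genes on each side of Nedd4 were examined, a window chosen after values were seen. Among the 43 measured there, 99 probe sets held 0 calls with limma over all probe sets, and at an unadjusted p of 0.05 held 10 higher and 1 lower, or 11.11%. Over the whole array that share was 6.62%, made of 3.85% higher and 2.77% lower. With arrays centred on the median, the whole-array count at that p fell from 2980 to 672 (limma). Only 11 of the 99 probe sets near Nedd4 were ordinary. Their median difference was -0.058, so low-variation probe sets, whose differences have no readable size, are among the 10 higher. No local excess is read from these counts. Whether probes meet a strain difference was not tested, as probe sequences were not used here.

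Variation among mice of the same genotype does not contain the genotype difference that chose the genes. A choice of separated readings can still favour those with a small spread. Each value was set against its genotype mean, and 44 relations were computed over the 10 arrays with exact permutations within genotypes. None passed Benjamini-Hochberg adjustment, and 6 had an unadjusted p of 0.05 or less by Pearson's r. Among relations between probe sets of the 4 genes, the 3 within Nedd4l had the highest r. Between 1423269_a_at and 1457374_at Pearson's r was 0.92 (exact permutation p = 0.00174, adjusted p = 0.0581) and Spearman's rho was 0.93 (exact permutation p = 0.00194, adjusted p = 0.0856), with r at 0.76 without the 2 arrays farthest from the median. Between 1423269_a_at and 1441305_at r was 0.80 (exact permutation p = 0.0124, adjusted p = 0.181) and rho 0.78 (exact permutation p = 0.0193, adjusted p = 0.283), with r at 0.78 without 2 arrays. Between 1441305_at and 1457374_at r was 0.79 (exact permutation p = 0.0173, adjusted p = 0.186) and rho 0.76 (exact permutation p = 0.0269, adjusted p = 0.296), with r at 0.73 without 2 arrays.

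In Nedd4 the brightest and the dimmest probe set had the closest relation. Between 1450431_a_at and 1451109_a_at r was 0.72 (exact permutation p = 0.0211, adjusted p = 0.186) and rho 0.66 (exact permutation p = 0.0566, adjusted p = 0.415), with r at 0.66 without 2 arrays. The separated probe set 1421955_a_at had r = 0.25 with the brightest (exact permutation p = 0.465, adjusted p = 0.911) and rho = 0.30 (exact permutation p = 0.41, adjusted p = 0.95), with r at 0.62 without 2 arrays. With the dimmest its r was -0.21 (exact permutation p = 0.584, adjusted p = 0.911) and rho -0.19 (exact permutation p = 0.636, adjusted p = 0.95), with r at 0.17 without 2 arrays.

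Different genes of the 4 had 22 relations, with r from -0.37 to 0.53, a median of 0.11 and no r at an unadjusted p of 0.05. By rho, 1 had an unadjusted p under 0.05: between Nedd4 1450431_a_at and Xiap 1456088_at rho was 0.68 (exact permutation p = 0.0465, adjusted p = 0.409) and r 0.53 (exact permutation p = 0.145, adjusted p = 0.798), with r at 0.57 without wild types 1 and 2. Among the separated probe sets r was 0.08 for Nedd4 with Ltn1, 0.30 for Nedd4 with Xiap and -0.31 for Ltn1 with Xiap. Without the 2 arrays farthest from the median these were 0.42, 0.18 and -0.75. In the same order, r was -0.87, 0.63 and -0.86 in the 5 knockouts and 0.70, -0.19 and -0.13 in the 5 wild types. A relation that 10 arrays cannot show may still be present.

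Array controls for RNA length compare the 3' with the 5' probe set of a long-known transcript. For Actb, the beta-actin gene, that value was 0.62 ± 0.193 (SD, n = 5) in knockouts and 0.53 ± 0.147 (SD, n = 5) in wild types, a difference of 0.09 (exact two-sided permutation p = 0.397). For Gapdh it was 0.41 ± 0.088 (SD, n = 5) and 0.41 ± 0.0696 (SD, n = 5), with an exact two-sided permutation p of 0.992. Neither differed between genotypes beyond the spread of arrays. Within genotypes, Xiap 1456088_at moved with the Actb control at r = 0.87 (exact permutation p = 0.00264, adjusted p = 0.0581) and rho = 0.87 (exact permutation p = 0.00438, adjusted p = 0.0963). That r was 0.95 in knockouts and 0.77 in wild types, and 0.78 without knockout 5 and wild type 3, the 2 arrays with lymphocyte genes. Ltn1 1427950_at had r = -0.61 with the same control (exact permutation p = 0.0447, adjusted p = 0.327) and rho = -0.60 (exact permutation p = 0.0692, adjusted p = 0.43), and r was -0.74 without wild types 4 and 5. With the Gapdh control, Xiap 1456088_at had r = -0.21 (exact permutation p = 0.583, adjusted p = 0.911). Ltn1 1427950_at had r = -0.03 with Gapdh (exact permutation p = 0.936, adjusted p = 0.936). For Nedd4 1451109_a_at r was -0.68 with Gapdh (exact permutation p = 0.0583, adjusted p = 0.367). Its r with Actb was 0.22 (exact permutation p = 0.58, adjusted p = 0.911). Adipocyte markers had 7 of 10 measured, and the 6 ordinary ones were set against their own medians over the arrays. On average they differed by -0.12, -0.18, -0.35, 0.48 and 0.59 in knockouts and by -0.30, 0.09, 0.85, -0.69 and 0.34 in wild types. The 5 knockouts had the same order in this list and in Xiap 1456088_at, and wild type 3 was the highest in both. Wild type 5 was next to the highest in the list but the lowest in Xiap, and the list overlapped between the genotypes. Macrophage markers were also highest in knockout 5 (0.32) and wild type 3 (0.57), with the other knockouts in another order. The parts of RNA length and fat tissue in these readings were not tested.

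**Figure D4:**
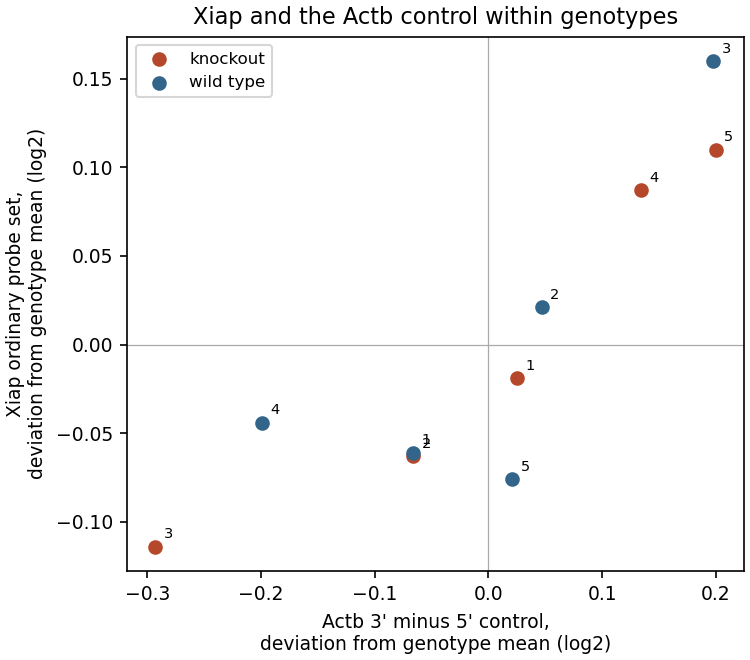
Deviation from the genotype mean (log2) of Xiap 1456088_at against that of the Actb 3' minus 5' control, a point for each of 10 arrays coloured by genotype and numbered by replicate, with wild type 1 drawn over knockout 2. Knockouts have the same order on both axes; in wild types, array 3 is highest on both, and array 5 has the lowest Xiap reading without the lowest control value.

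The probe sets of other genes that moved most like each reading within genotypes are given with r over 10 arrays, out of 5335 to 5337 ordinary probe sets compared. These are the highest of many values from arrays that share tissue mixture and RNA quality, and carry no p. For the brightest Nedd4 probe set they were Kif1b, a kinesin motor, in 2 probe sets at 0.96 and 0.95, and Eif3a, a translation initiation factor subunit, at 0.94. For Nedd4 1451109_a_at they were Hnrnpf, Mccc2 and Kdm7a at 0.98, 0.97 and 0.96. For the brightest Nedd4l probe set they were Lpin1, a phosphatidate phosphatase, at 0.97, Dync1h1, the dynein heavy chain, at 0.96 and Map3k6 at 0.95. For Nedd4l 1457374_at they were Slc7a8, an amino acid transporter, at 0.99, Hecw2, another ligase of the NEDD4 family, at 0.98 and Foxo1, a transcription factor active in fasted muscle, at 0.97. For Ltn1 they were Sspn, Kcnj12 and Fgf13 at 0.90, 0.89 and 0.88, and for Xiap they were Ly6d, Csad and Amy1 at 0.91, 0.91 and 0.90.

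The genes that work with these ligases were taken from 12 lists with 190 genes, of which 167 were measured with 436 probe sets. The genotype tests below are from limma with adjustment over all 45037 probe sets. In all lists 1 probe set was called higher and 1 lower. At an unadjusted p of 0.05, 24 were higher and 14 lower, together 8.7% against 6.62% of the whole array (3.85% higher and 2.77% lower). Counts at an unadjusted p, here and in the lists below, can include low-variation probe sets, whose differences have no readable size. On the whole array such counts fell from 2980 to 672 with arrays centred on the median (limma). The 98 ordinary probe sets had a median difference of 0.011, with 52 higher and 46 lower in the mean. The 2 calls among 436 probe sets stand beside 0.191% called on the whole array.

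The other 7 HECT ligases of the NEDD4 family were all measured, with 24 probe sets and no call (limma, 1 higher and 1 lower at an unadjusted p of 0.05). The 4 ordinary ones were all higher in the mean, with a median of 0.105. They include the 3 probe sets of Wwp1, a relative of Nedd4 with the same WW domains, which differed by 0.10, 0.11 and 0.17, the last with a limma adjusted p of 0.745. The 3 readings of Wwp1 were close to each other. They are not set against those of Nedd4, whose gap follows from the reading on which it was chosen. Hecw2 differed by 0.02. Itch, Smurf1, Smurf2, Wwp2 and Hecw1 were read by low-variation probe sets alone.

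Adaptors and activators of NEDD4 ligases comprised 20 genes with 50 probe sets, of which 0 were called higher and 1 lower, with 2 higher and 2 lower at an unadjusted p of 0.05. The call was a low-variation probe set of Ywhae, a 14-3-3 protein, whose difference has no readable size (limma adjusted p = 0.0385). It was called in 2 of 17 alternatives, with adjusted p from 0.0263 to 1. Of 18 ordinary probe sets 4 were higher and 14 lower in the mean, with a median of -0.030. Ndfip1, a membrane adaptor that recruits and activates Nedd4, differed by -0.11 (limma adjusted p = 0.814), Arrdc2, an arrestin-like adaptor, by -0.34 (adjusted p = 0.883) and Ywhah by -0.03 (adjusted p = 0.948).

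Genes listed as possible substrates of Nedd4 and Nedd4l are given without a source for each. Of 24 listed, 21 were measured, with 46 probe sets and no call (limma, 4 higher and 1 lower at an unadjusted p of 0.05). Their 17 ordinary probe sets were higher in 13 and lower in 4, with a median of 0.042. Vegfb, a growth factor, differed by 0.28 ± 0.08 (SE, limma adjusted p = 0.449), Cblb, itself a ubiquitin ligase, by 0.37 (adjusted p = 0.787) and Fbxo32, the muscle F-box protein atrogin-1, by 0.19 (adjusted p = 0.849). Transcript levels do not measure what a ligase does to a substrate protein.

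The ribosome quality control genes that act with Ltn1 had 22 of 24 measured, with 62 probe sets and no call (limma, 3 higher and 6 lower at an unadjusted p of 0.05). Of 7 ordinary probe sets 4 were higher and 3 lower, with a median of 0.052. Pelo, which splits stalled ribosomes, differed by -0.22 ± 0.08 (SE, limma adjusted p = 0.661), Rchy1, another ligase of this pathway, by -0.02 (adjusted p = 0.602) and Map3k20, a kinase that senses collided ribosomes, by 0.20 (adjusted p = 0.944). Nemf and Tcf25, the partners of listerin on the ribosome, had low-variation probe sets alone, with the brightest at 9.22 and 8.88.

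The inhibitor of apoptosis family, to which Xiap belongs, held the higher call. Of 8 measured genes with 14 probe sets, 1 probe set was called higher and 0 lower, with 1 higher and 2 lower at an unadjusted p of 0.05. The call was Birc6 1427488_a_at, of a very large family member that both blocks caspases and acts as a ubiquitin-conjugating enzyme. It ran from 6.61 to 7.02 in knockouts and from 5.81 to 6.20 in wild types, without overlap. The means were 6.78 ± 0.162 (SD, n = 5) and 5.94 ± 0.149 (SD, n = 5), a difference of 0.83 ± 0.10 (SE, limma adjusted p = 0.0192), or 1.78 times, on a wild-type level below the array medians where background is not excluded. Like Ltn1 and Xiap, Birc6 had a low-variation brightest probe set, at 8.31, and its 1 ordinary probe set was a dimmer one. The 2 lower probe sets were also of Birc6, 1442959_at and 1442495_at, both low-variation (limma unadjusted p = 0.0172 and 0.0137, adjusted p = 0.578 and 0.536). The call held in 8 of 18 alternatives, with differences of 0.71 to 0.90 and adjusted p from 0.00143 to 0.81. It was lost without any of knockouts 2, 3 and 4 and wild types 1, 3, 4 and 5, and without the 2 arrays with lymphocyte genes or the 5 that carried another tissue's genes (limma adjusted p = 0.81 without the 5). Birc3 differed by 0.05 (adjusted p = 0.998).

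Antagonists of Xiap and caspases had 10 of 13 genes measured, with 23 probe sets and no call (limma, 1 higher and 1 lower at an unadjusted p of 0.05). Xaf1, which antagonizes Xiap, differed by 0.29 ± 0.12 (SE, limma adjusted p = 0.737), Septin4, whose ARTS product does so too, by -0.20 (adjusted p = 0.801) and Casp8 by -0.09. The 5 ordinary probe sets had a median of -0.087. Signalling partners of Xiap had 10 of 13 measured, with 22 probe sets and no call (limma, 1 higher and 0 lower at an unadjusted p of 0.05). Commd1, a copper regulator that Xiap ubiquitinates, differed by -0.04, Tab3 by 0.04 and Hccs by -0.00.

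Upstream of all 4 ligases, E1 and E2 enzymes had 29 of 33 genes measured, with 76 probe sets and no call (limma, 0 higher and 1 lower at an unadjusted p of 0.05). Of their 18 ordinary probe sets 4 were higher and 14 lower, with a median of -0.049, and Ube2d3 and Ube2a each differed by -0.10 and Ube2w by -0.05. The 4 ubiquitin precursor genes had no probe set of a single gene. Deubiquitinases known for these ligases had 11 genes with 35 probe sets and no call (limma, 3 higher and 0 lower at an unadjusted p of 0.05). All 10 ordinary ones were higher in the mean, with a median of 0.116. Usp9x differed by 0.13 (limma adjusted p = 0.787), Usp7 by 0.14 and Otud1 by 0.28 (adjusted p = 0.969).

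Other HECT ligases had 16 of 18 genes measured, with 52 probe sets, no call and 8 higher against 0 lower at an unadjusted p of 0.05 (limma). Only 6 of the 52 were ordinary, so low-variation probe sets are among the 8. With quantile normalization, and also with arrays centred on the median, 2 stood at that p (limma). The 6 ordinary ones were all higher in the mean, with a median of 0.105. Herc1, a giant HECT ligase, stood just outside the threshold in its dimmer probe set 1440437_at, with 6.52 in knockouts against 6.02 in wild types, no overlap and a difference of 0.50 ± 0.07 (SE, limma adjusted p = 0.0501). Its wild-type mean lay below the array medians, so the size of a change in RNA is uncertain there too. Ube3a, the ligase lost in Angelman syndrome, differed by 0.14 ± 0.04 (SE, adjusted p = 0.45) and Huwe1 by 0.12 (adjusted p = 0.864). The muscle RING and F-box ligases of atrophy had 14 of 15 genes measured, with 33 probe sets, no call and 0 at an unadjusted p of 0.05 in either direction (limma). Trim63, or MuRF1, differed by -0.07, Fbxo31 by -0.10 and Fbxo30 by -0.20 (adjusted p = 0.932).

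**Figure D5:**
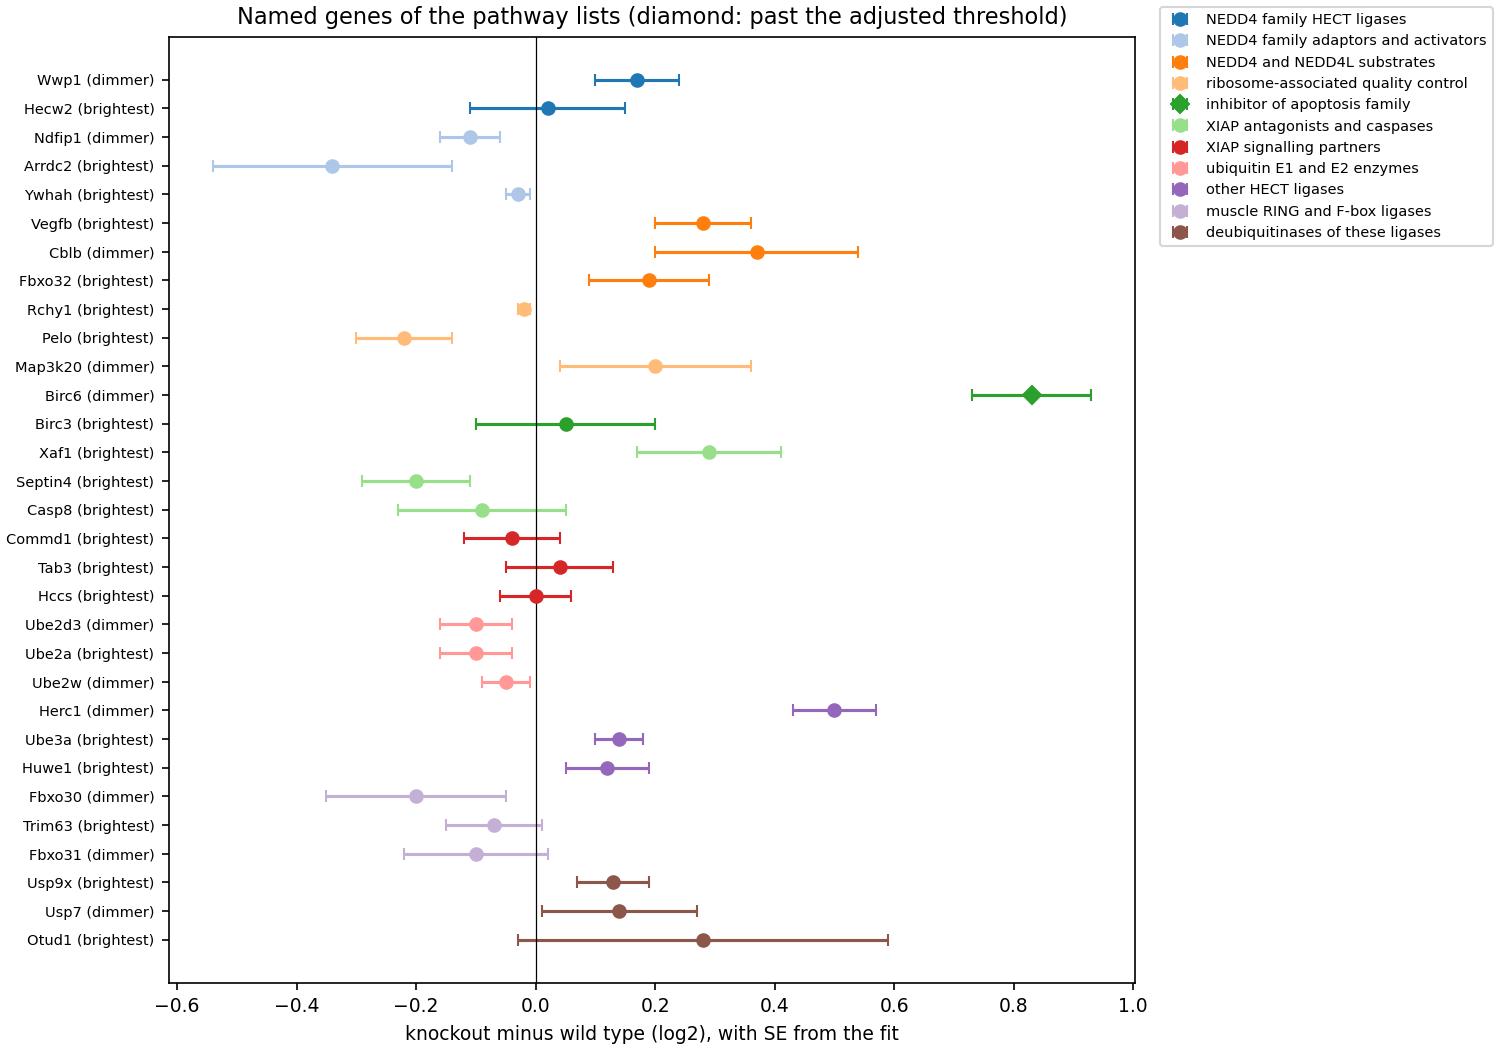
Knockout minus wild-type difference (log2) with SE from the limma fit for the named genes of 11 pathway lists, coloured by list and marked as the brightest or a dimmer probe set of the gene. Birc6 at 0.83, drawn as a diamond, is past the adjusted threshold, Herc1 at 0.50 is next in size, and most of the others lie within 0.3 of 0.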

How the data were processed

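Gene expression was measured on Affymetrix Mouse Genome 430 2.0 arrays in 10 muscles. Per the labels' protocols, the RNA was isolated with Trizol, cleaned on columns, and 100 ng a sample was amplified with a 3' IVT kit. Each deposited value is taken to be a log2 expression level that the authors had already normalized, because the array medians lay at 6.23 to 6.24; for summarization and log base, the sources used here give nothing. Of 45101 rows, 64 controls were left out. The platform annotation gave 34945 probe sets 1 gene, 932 several and 9160 none, and 34741 matched the RefSeq gene table (GRCm38.p6). Across ordinary probe sets the correlation between arrays was 0.950 to 0.993.

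The genotype test was limma 3.58.1 (R 4.3.3; lmFit, then eBayes with no trend), Benjamini-Hochberg adjusted at 0.05 over 45037 probe sets and tested on simulated data. In the simulated data, limma recovered 38.9% of changes of 0.5 log2 and 77.8% of changes of 1 log2, all placed in ordinary probe sets. Recovery in low-variation probe sets was not tested. A list with no call is thus not shown to be unchanged. The p-values measure the spread between these arrays, and 5 a group limit the precision. Other values used exact permutation tests. The members and the gene lists were chosen with earlier results of these data known. All probe sets of the 4 genes are named. In each list, genes past the adjusted threshold and up to 3 with the smallest p among ordinary probe sets are named. For likeness, the brightest and the most spread other probe set of a gene were used where ordinary, which leaves 1 each for Ltn1 and Xiap, with clone names skipped. An array was said to carry a tissue's genes where the ordinary markers of the list lay on average more than 1 above their own medians over the arrays. Alternatives were quantile normalization, centring, filters on level and SD, a trend, the replicate number as a block, medians and left-out arrays. Figures used Python 3.11.15, pandas 2.3.3, numpy 2.4.6, scipy 1.17.1 and matplotlib 3.10.9.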

Additional observations from a re-analysis of the deposited data

How the results depend on the processing

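Over the alternatives, the separated probe sets of Nedd4, Ltn1 and Xiap differed by 0.79 to 0.94, 0.49 to 0.56 and 0.56 to 0.65; their direction was fixed by the choice of genes. Of all recomputed differences of the 4 genes, list counts and relations, 286 moved by less than the replicate spread or, for counts, within 1.5 times, and 26 moved by more: 2 Nedd4 differences (1421955_a_at to 0.79 and 1450431_a_at to 0.03 without the 5 arrays that carried another tissue's genes) and the calls of Ywhae and Birc6, whose lists then had 0 (limma). The count of 86 probe sets called with limma was less stable: it was 5 with the brightest probe set per gene, 43 after quantile normalization, 143 with probe sets of SD above 0.01 alone, and 31 to 57 with each array left out, lowest without knockout 4. Every one of the 10 arrays moved it by more than 1.5 times. Without those 5 arrays it was 0 with limma (2672 at an unadjusted p of 0.05), and without the 2 with lymphocyte genes, chosen after seeing the data, it was 16. It was 62, 117 and 85 with centring, a filter on level and a trend. A replicate block left 5, but the numbers did not pair the arrays, as same-numbered arrays deviated together at r of 0.25, 0.32, -0.40, 0.02 and -0.14. The differences of the 4 genes were the same with the block, and the Birc6 call was lost (limma adjusted p = 0.237). Readings near the array medians of 6.23 to 6.24, as in Ltn1 wild types, are limited by background, and low-variation readings have no size.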
